A study of Mus musculus with 6 samples.

Results

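Inhibitory receptors of myeloid cells and the phosphatases that act behind them were followed through 10 genes. They were 8 receptor genes (Pirb, Lilrb4a, Lilr4b, Sirpa, Cd300a, Cd300lf, Clec12a and Pecam1) and 2 phosphatase genes (Ptpn6 and Inpp5d). They were chosen by name, as the genes of the count table whose Ensembl identifier, with its version removed, carries one of these symbols in the GENCODE M21 annotation. All 10 were found among the 55487 genes of the table. The cells were RAW264.7, an established mouse macrophage line that can form osteoclasts, and RANKL and M-CSF, which induce osteoclasts, had been given to all 6 samples from which RNA was sequenced. The 3 control samples have the genotype wt, and the study's design text calls the control line untreated. The other 3 are titled SMART-Cas9 and carry the genotype RhoA knockout, RhoA being a small GTPase of the actin cytoskeleton. The stated question was how macrophages short of RhoA bear on bone destruction in rheumatoid arthritis. Since no sample had Cas9 without the targeting of RhoA, the treatment and the edit cannot be told apart. The labels do not say whether the edited cells were a clone or a pool, nor whether a group's 3 samples came from separate cultures. The p-values therefore reflect the spread among the samples at hand, which may be no more than technical.

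Receptors of this kind carry short tyrosine motifs (immunoreceptor tyrosine-based inhibitory motifs, ITIMs) in the part of the protein inside the cell. When a receptor is engaged, Src family kinases phosphorylate the tyrosine, and the motif then recruits the tyrosine phosphatase SHP-1, encoded by Ptpn6, or the lipid phosphatase SHIP-1, encoded by Inpp5d, which dampen signals from activating receptors and their ITAM adaptors. In the osteoclast lineage these brakes matter because ITAM signals cooperate with RANKL, and mice that lack SHP-1 or SHIP-1 are known to form more, or more active, osteoclasts.

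The libraries held 60198645 to 81830819 counts. The 10 most abundant genes took 62.0 to 63.2% of the counts in the control libraries and 44.1 to 47.8% in the others. Mitochondrial genes took 7.01 to 8.69% of the counts in control and 9.95 to 12.26% in the other libraries, and the part of this difference in the results was not tested. Replicate 3 of each group stood apart. Compared gene by gene, control replicates 1 and 2 gave a chi-square of 20.7 per degree of freedom, while either against control replicate 3 gave 89.0 or more. In the other group replicates 1 and 2 gave 26.3, and either against replicate 3 gave 80.8 or more. Rhoa, the targeted gene, was at 21.4, 25.8 and 24.4 CPM (counts scaled to the library total, adjusted with TMM factors throughout) in control replicates 1 to 3 and at 34.2, 29.9 and 31.5 CPM in the samples labelled knockout. It was thus not lower in them: edgeR gave a log2 fold change of 0.41 (SE 0.12, adjusted p = 0.0136), and the call was lost without control replicate 1 (0.34, adjusted p = 0.0654 in edgeR) or without replicate 1 of the other group (0.34, adjusted p = 0.0764 in edgeR). Counts do not show whether the sequence was edited, and the second group is called the libraries labelled RhoA knockout below. None of the 10 fixed macrophage markers was at 0 in any library, and their summed level was 18214 to 20068 CPM in control and 81102 to 113700 CPM in the labelled knockout libraries, most of it from Lyz2. Its members did not move together: Lyz2, Cd68 and Csf1r were called higher by edgeR, Itgam, Fcgr1, Cd14, Adgre1 and Ptprc were called lower, and Spi1 and Aif1 were not called. The part of these shifts in the results was not tested. All 5 NK cell markers, 7 of 8 neutrophil, 4 of 5 B cell, 4 of 6 T cell and 5 of 6 fibroblast markers were at 0 in every library.

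ITIM-type motifs are shown as coding sequence, because receptors of this kind are called inhibitory on account of such motifs. The GENCODE M21 coding sequences (GRCm38) were searched for 6 codons of which the first encodes isoleucine, valine, leucine or serine, the third tyrosine and the last isoleucine, valine or leucine, on the cytoplasmic side of the most hydrophobic window of 19 codons, the side being that known for each receptor. Anywhere in a coding sequence, such a motif occurs in 49.1% of the 21562 genes searched, so a match is a description and not a site shown to work. The stretches found are given 5′ to 3′ with the tyrosine codon in capitals.
Pirb, coding bases 2131 to 2148: agcctaTATgcttcagtg
Pirb, coding bases 2374 to 2391: gtgaccTATgcccagctg
Pirb, coding bases 2464 to 2481: agtgtaTATgctactctg
Lilrb4a, coding bases 892 to 909: attgtcTACgcccaggta
Lilrb4a, coding bases 958 to 975: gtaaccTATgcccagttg
Sirpa, coding bases 1312 to 1329: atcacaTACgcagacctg
Sirpa, coding bases 1435 to 1452: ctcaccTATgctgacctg
Sirpa, coding bases 1507 to 1524: tcagagTATgctagtgtc
Cd300a, coding bases 778 to 795: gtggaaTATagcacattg
Cd300a, coding bases 814 to 831: cttcacTATtcatccgtg
Cd300lf, coding bases 715 to 732: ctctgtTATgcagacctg
Cd300lf, coding bases 859 to 876: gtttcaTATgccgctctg
Clec12a, coding bases 13 to 30: attgttTATgcaaatctc
Pecam1, coding bases 2029 to 2046: gtagaaTACacagaagtg
The side was set beforehand, before the span for Clec12a, whose membrane span lies near the start of the protein, and after it for the other receptors. The position of the motifs is therefore no finding. Matches elsewhere are not shown, as in Clec12a with 5 anywhere against 1 kept and Pecam1 with 3 against 1. All 3 of Sirpa and both of Cd300lf were kept. Lilr4b had 0 motifs on the cytoplasmic side, so the name inhibitory rests for this gene on its family and not on a motif found here.

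Lilr4b and Lilrb4a are neighbours that encode gp49A and gp49B, and the ends of their coding sequences, from base 856 of each, show where they part. Lilrb4a runs on to base 1005 and Lilr4b stops at base 909. The motifs on the cytoplasmic side are in capitals.
Lilrb4a, coding bases 856 to 1005: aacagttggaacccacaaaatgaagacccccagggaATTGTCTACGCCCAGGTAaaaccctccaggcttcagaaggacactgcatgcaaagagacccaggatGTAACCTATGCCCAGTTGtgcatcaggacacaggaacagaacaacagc
Lilr4b, coding bases 856 to 909: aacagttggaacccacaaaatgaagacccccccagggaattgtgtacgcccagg
The coding sequences were 86.5% identical over 1007 aligned columns. Part of the sequence tells the genes apart, as in coding bases 212 to 301, where the 11 bases that differ are in capitals.
Lilrb4a, coding bases 212 to 301: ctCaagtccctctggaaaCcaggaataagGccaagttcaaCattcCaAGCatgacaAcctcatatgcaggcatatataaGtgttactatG
Lilr4b, coding bases 212 to 301: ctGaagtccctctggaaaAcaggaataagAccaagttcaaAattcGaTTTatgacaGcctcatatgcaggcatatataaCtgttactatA
The longest identical run was 126 bp. Of windows of 50 bases 17.7% were identical, and of windows of 100 bases 4.5%, so a share of reads cannot be placed by sequence alone.

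The receptors and phosphatases did not move as a block. Pirb, Sirpa, Cd300a and Clec12a were higher in the libraries labelled RhoA knockout, and Lilrb4a, Lilr4b, Cd300lf and Inpp5d were lower. Ptpn6 was not called and Pecam1 had too few counts to be tested. These 4 higher and 4 lower among 9 tested genes stand beside a comparison in which 43.2% of all 12930 tested genes were called by edgeR at an adjusted p under 0.05, 21% higher and 22.3% lower. The groups did not overlap for 8 of the 9, against 55.8% of all tested genes. Pirb passed the filter on low counts only through the group in which it was high, so these counts are a description. The median log2 fold change was 0.05 over the 9 tested genes and -0.03 over all tested genes. With each library left out in turn, 3 to 4 genes were called higher and 2 to 3 lower, the latter count being 2 without control replicate 3, without knockout replicate 1 or without knockout replicate 2. In whole cultures, fewer cells of a kind and less RNA per cell cannot be told apart.

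**Figure D1:**
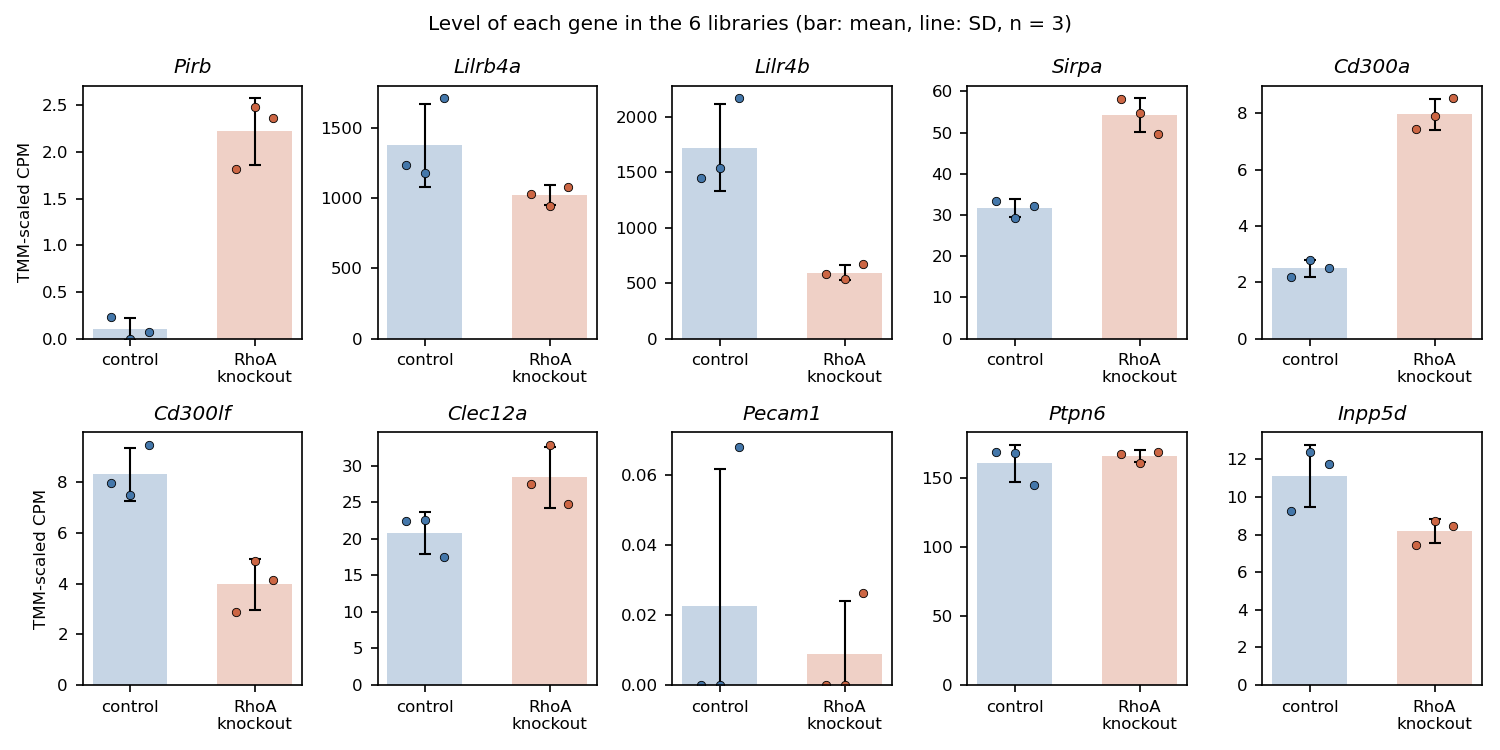
TMM-scaled CPM of the 10 genes, on a separate linear axis for each gene, with points for libraries, bars for group means and lines for the SD (n = 3). Only Ptpn6 and Pecam1 have groups that overlap, Pirb rises from near 0 to between 1.82 and 2.48 CPM, and the axes of Lilrb4a and Lilr4b reach far higher than the others.

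Pirb (chr7:3711409-3720391, minus strand) encodes the paired immunoglobulin-like receptor B, which binds MHC class I and myelin-associated proteins and is known to restrain osteoclast formation. It was close to absent from the control libraries, with 18, 0 and 4 counts (0.233, 0 and 0.0679 CPM), and held 149, 222 and 180 counts (1.82, 2.48 and 2.37 CPM) in the libraries labelled RhoA knockout. The lowest of the latter was above the highest control. Summed and scaled for library size, 551 counts against 22 gave a ratio of 19.7 (95% exact interval 12.9 to 31.7, counting error only). For Pirb, edgeR gave a log2 fold change of 4.37 (SE 0.75, adjusted p = 0.000554), with 5.96 without control replicate 1, the control library with most of the Pirb counts, and 3.81 without control replicate 2, where Pirb was at 0. Without the filter on low counts the value was 4.36 (edgeR, adjusted p = 0.000159). The most identical match of the Pirb transcript to each of 9 annotated Pira-like genes and pseudogenes was 305 bp long, at 97.4 to 100% identity. Longer stretches of lower identity may also be shared. None of the 9 exceeded 82 counts in a library. Their counts added up to more than those of Pirb in labelled knockout replicates 1 and 2, and to fewer in replicate 3. Summing all of them with Pirb gave 4.65 (edgeR, adjusted p = 4.66e-05). Reads of Pirb and of these relatives are therefore not separable with certainty, but the sum moved the same way. How much of the rise lay in Pirb itself was not tested.

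Lilr4b (chr10:51480632-51486703, plus strand) and Lilrb4a (chr10:51490956-51496611, plus strand) were the most abundant of the 10 genes, and both were lower in the libraries labelled RhoA knockout, Lilr4b more so. Lilrb4a encodes gp49B, an inhibitory receptor with the pair of motifs printed above, known in myeloid and mast cells and as a receptor for the integrin alphavbeta3 and fibronectin. Lilr4b was at 1450, 1543 and 2170 CPM in control replicates 1 to 3 and at 581, 537 and 668 CPM in the libraries labelled knockout. Every labelled knockout library was below every control, and control replicate 3 was the highest of all. For Lilr4b, edgeR gave a log2 fold change of -1.53 (SE 0.16, adjusted p = 1.38e-05), a level 2.89-fold lower, and it kept its call in each of 18 alternatives.

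Lilrb4a was at 1238, 1177 and 1715 CPM in the controls and at 1034, 944 and 1084 CPM in the libraries labelled knockout. The groups did not overlap, but the gap between the highest labelled knockout library and the lowest control was small beside the spread of the controls. For Lilrb4a, edgeR gave a log2 fold change of -0.43 (SE 0.15, 95% interval -0.76 to -0.10, adjusted p = 0.0365). The call was lost in edgeR without control replicate 1 (-0.50, adjusted p = 0.0511), control replicate 3 (-0.24, adjusted p = 0.12), knockout replicate 1 (-0.46, adjusted p = 0.0752) or knockout replicate 2 (-0.40, adjusted p = 0.106). Over the 17 alternatives fitted to Lilrb4a alone the adjusted p in edgeR or DESeq2 ran from 0.0125 to 0.164.

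Within each library the log2 ratio of Lilr4b to Lilrb4a counts, which needs no scaling between libraries, was 0.23, 0.39 and 0.34 in the controls and -0.83, -0.81 and -0.70 in the libraries labelled knockout. Thus Lilr4b had more counts than Lilrb4a in every control and fewer in every labelled knockout library. The mean ratio changed by -1.10. The exact two-sided permutation p was 0.1, the smallest that 3 against 3 samples allow, and 0.1 after adjustment over the 4 ratios examined here. The 4 ratios were chosen after the data were seen, and the adjustment does not cover that choice. The most identical match between the 2 genes was 334 bp at 99.1% identity. Both overlap the exons of Gm49339, a gene model that covers both. Lilrb4a matches Gm49339 at 100% over 1381 bp, and Lilr4b matches it at 99.1% over 334 bp. The Gm49339 count reached 58.9% of the Lilrb4a count and 44.9% of the Lilr4b count in a library. The levels of both genes and their ratio are therefore uncertain to the extent that reads were shared. Gm49339 had 504, 693 and 688 CPM in the controls and 132, 174 and 217 CPM in the libraries labelled knockout (edgeR log2 fold change -1.85, SE 0.18, adjusted p = 7.76e-06). How reads were divided among the 3 genes is not given in the sources used here, and their sum fell by 1.06 on the log2 scale (edgeR, adjusted p = 0.000152).

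**Figure D2:**
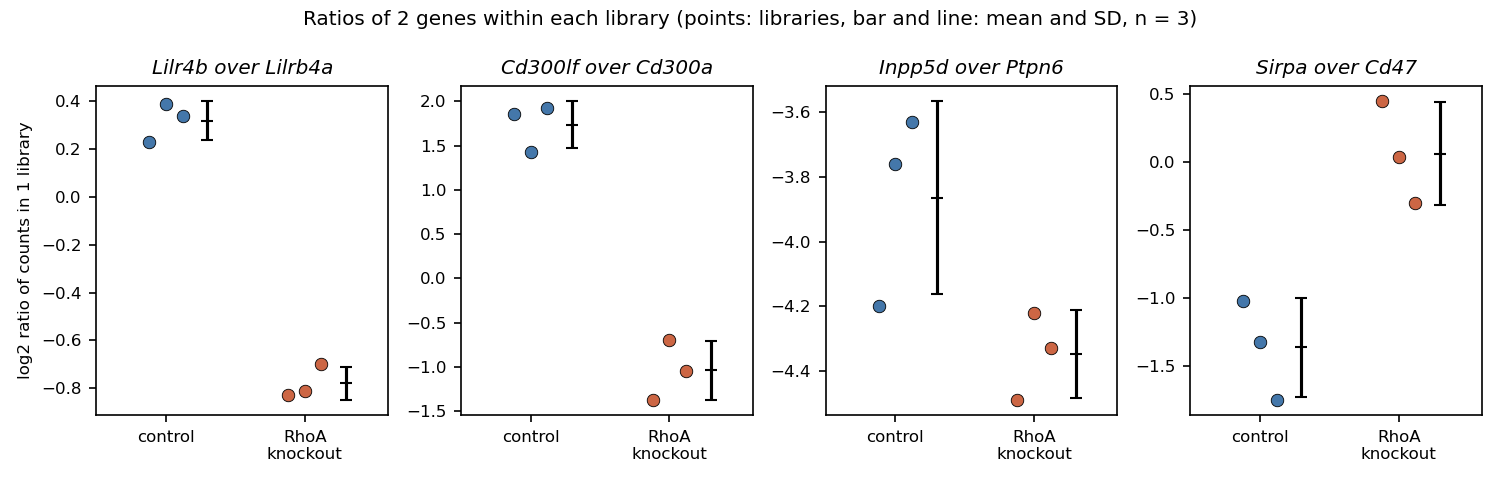
Log2 ratio of the counts of 2 genes within each library (points), with the mean and SD of each group beside them (n = 3). The axes differ between panels and do not start at 0. In each panel the groups do not overlap, and the ratios of Lilr4b to Lilrb4a and of Cd300lf to Cd300a change sign between the groups.

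Sirpa (chr2:129592835-129632228, plus strand) encodes SIRP alpha, which on binding CD47 restrains phagocytosis through SHP-1 and takes part in macrophage fusion. It was higher in the libraries labelled RhoA knockout. The control libraries held 33.5, 29.2 and 32.2 CPM of Sirpa and the others 58.1, 54.9 and 49.8 CPM. The groups lay well apart, and within each group the libraries were close to each other. For Sirpa, edgeR gave a log2 fold change of 0.78 (SE 0.11, adjusted p = 0.00013), a level 1.72-fold higher, and the call held in each of 17 alternatives. Its closest annotated relative by sequence, Sirpb1b, matched at 79.2% over 332 bp and had at most 37 counts in a library.

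Cd47, the ligand of SIRP alpha and present on the same cells, moved the other way. It is named here for its pairing with Sirpa, after its values were seen. Cd47 was at 67.7, 73.0 and 108.6 CPM in the controls and at 42.4, 53.5 and 61.2 CPM in the libraries labelled knockout (edgeR log2 fold change -0.67, SE 0.18, adjusted p = 0.0123). The log2 ratio of Sirpa to Cd47 counts rose from -1.02, -1.32 and -1.75 in the controls to 0.45, 0.04 and -0.30 in the libraries labelled knockout. Control libraries thus all had fewer Sirpa than Cd47 counts, and the labelled knockout libraries lay near equal counts. The mean change was 1.43 (exact two-sided permutation p = 0.1, the smallest this design allows).

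Cd300a (chr11:114890041-114904654, plus strand) and Cd300lf (chr11:115116214-115133992, minus strand) stand at the ends of the Cd300 gene cluster and encode inhibitory receptors for phospholipids exposed on dying cells. They moved in opposite directions. Cd300a was at 2.19, 2.78 and 2.51 CPM in the controls and at 7.43, 7.92 and 8.54 CPM in the libraries labelled knockout. Every labelled knockout library was above every control by a wide margin. For Cd300a, edgeR gave a log2 fold change of 1.68 (SE 0.20, adjusted p = 3.17e-05), a level 3.19-fold higher, and the call held in each of 17 alternatives. Its closest match, Cd300c2, held up to 81.8% of the Cd300a count in a library, and the sum of both was not among these alternatives. The level of Cd300a is therefore uncertain to the extent that reads were shared.

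Cd300lf was at 7.96, 7.48 and 9.48 CPM in the controls and at 2.88, 4.89 and 4.14 CPM in the libraries labelled knockout. The groups did not overlap. For Cd300lf, edgeR gave a log2 fold change of -1.06 (SE 0.22, adjusted p = 0.00202), a level 2.09-fold lower. The most identical match of Cd300lf to Cd300ld was 337 bp at 95.5% identity. Cd300ld held 1747 to 3078 counts against 236 to 614 for Cd300lf, and the sum of both was not called (edgeR log2 fold change -0.12, adjusted p = 0.541). The level of Cd300lf is therefore uncertain to the extent that reads were shared with Cd300ld.

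The log2 ratio of Cd300lf to Cd300a counts was 1.86, 1.43 and 1.92 in the controls and -1.37, -0.70 and -1.05 in the libraries labelled knockout. Controls had more counts of Cd300lf and the others more of Cd300a in every library. The mean ratio changed by -2.77 (exact two-sided permutation p = 0.1, the smallest this design allows). Between these ends lie 9 other Cd300 genes, of which 4 had enough counts to test. These 4 are named for their place in the cluster, after their values were seen. Cd300lb, an activating member that signals through ITAM adaptors, was higher, at 14.4, 14.5 and 19.8 CPM in the controls and 34.3, 31.1 and 33.9 CPM in the libraries labelled knockout (edgeR log2 fold change 1.03, SE 0.14, adjusted p = 0.000105). Cd300e, an activating receptor outside the fixed lists, rose from 0.337, 0.717 and 0.407 CPM to 2.668, 3.936 and 1.498 CPM (edgeR log2 fold change 2.48, SE 0.46, adjusted p = 0.000867). Cd300ld (0.05, SE 0.15, adjusted p = 0.831 in edgeR) and Cd300c2 (0.61, SE 0.43, adjusted p = 0.283 in edgeR) were not called, and Cd300c2 matches Cd300a at 94.0% over 364 bp. The 5 remaining genes had at most 25 counts in a library. The neighbourhood thus held rising, falling and uncalled genes.

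**Figure D3:**
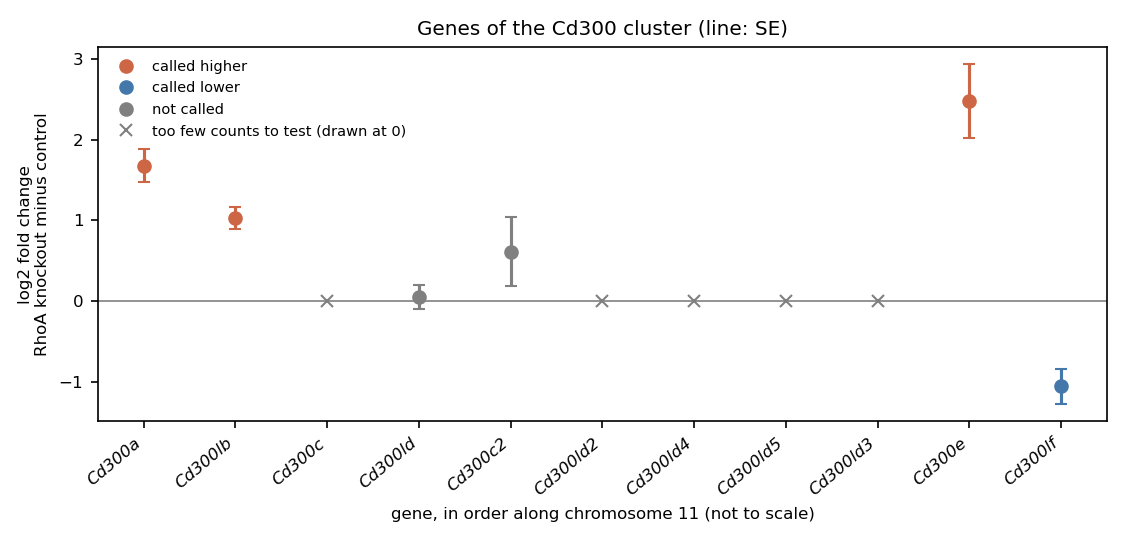
Log2 fold change (libraries labelled RhoA knockout minus control, edgeR, line for SE) of the 11 genes of the Cd300 cluster in their order along the chromosome, not to scale. Cd300a at the left end is at 1.68, Cd300lf at the right end at -1.06, and crosses mark the 5 genes with too few counts to test.

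Clec12a (chr6:129342691-129365303, plus strand) encodes an inhibitory C-type lectin that recognises uric acid crystals of dead cells. It was modestly higher, with 22.4, 22.5 and 17.5 CPM in the controls and 27.5, 32.9 and 24.8 CPM in the libraries labelled RhoA knockout. The highest control and the lowest labelled knockout library were close, and the groups did not overlap. For Clec12a, edgeR gave a log2 fold change of 0.45 (SE 0.14, 95% interval 0.13 to 0.76, adjusted p = 0.0249). The call was lost in edgeR without control replicate 3 (0.34, adjusted p = 0.0769), knockout replicate 1 (0.45, adjusted p = 0.0627) or knockout replicate 2 (0.31, adjusted p = 0.153), and over 17 alternatives the adjusted p ran from 0.00284 to 0.153.

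Pecam1 (chr11:106654217-106750628, minus strand) encodes CD31, an adhesion receptor of endothelium, platelets and leukocytes that carries an inhibitory motif. It had 0, 0 and 4 counts in the controls and 0, 0 and 2 counts in the libraries labelled knockout. A count of 0 allows up to 3 counts, or 0.0367 to 0.0498 CPM in these libraries, so Pecam1 was at or near the limit of detection and no fold is given. Of 8 endothelial markers, Cdh5, Tek, Emcn, Cldn5 and Tie1 were at 0 in every library, and the summed level of that list was 0.428 to 1.23 CPM in control and 2.01 to 2.64 CPM in the labelled knockout libraries, mostly from Egfl7. Pf4, a chemokine gene best known from platelets and named after its values were seen, was at 1.31, 0.564 and 1.05 CPM in the controls and 8.53, 8.78 and 9.50 CPM in the libraries labelled knockout (edgeR log2 fold change 3.18, SE 0.29, adjusted p = 3.6e-06). The platelet genes Gp9 and Ppbp were at 0 in every library.

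Of the phosphatases, Ptpn6 (chr6:124720707-124738714, minus strand) was the tested gene that was not called. SHP-1, its product, is a tyrosine phosphatase recruited by phosphorylated motifs of the kind shown above. Ptpn6 was at 169.5, 168.3 and 145.3 CPM in the controls and at 167.8, 161.6 and 169.4 CPM in the libraries labelled knockout. The groups overlapped, with control replicate 3 the lowest of the 6. For Ptpn6, edgeR gave a log2 fold change of 0.05 (SE 0.10, adjusted p = 0.752), and its 95% interval of -0.18 to 0.27 bounds the difference on either side. Without control replicate 3 the value was -0.02.

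Inpp5d (chr1:87620312-87720507, plus strand) encodes SHIP-1, which removes a phosphate from the lipid product of PI 3-kinase. It was at 9.24, 12.4 and 11.8 CPM in the controls and at 7.47, 8.70 and 8.44 CPM in the libraries labelled RhoA knockout. Control replicate 1 lay close to the labelled knockout libraries, though the groups did not overlap. For Inpp5d, edgeR gave a log2 fold change of -0.44 (SE 0.16, 95% interval -0.80 to -0.08, adjusted p = 0.0478), next to the threshold of 0.05. In edgeR the call was lost without control replicate 2 (-0.38, adjusted p = 0.134), control replicate 3 (-0.40, adjusted p = 0.109), knockout replicate 1 (-0.40, adjusted p = 0.125), knockout replicate 2 (-0.51, adjusted p = 0.0641) or knockout replicate 3 (-0.46, adjusted p = 0.078). Over 17 alternatives the adjusted p in edgeR or DESeq2 ran from 0.0255 to 0.685.

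Gene length moved with the comparison as a whole, since the median log2 fold change of all tested genes fell from 0.32 in the shortest of 5 classes of exon length to -0.47 in the longest. Inpp5d, with 7602 bp of exons, is in the longest class, and with a length correction its log2 fold change was -0.10 (edgeR, adjusted p = 0.685). Ptpn6, the shortest of the 10 with 2802 bp, is in the class next to the shortest, where the median was 0.26, and its value with the correction was -0.14 (edgeR, adjusted p = 0.282). The part of length in these results was not tested further. The log2 ratio of Inpp5d to Ptpn6 counts was -4.20, -3.76 and -3.63 in the controls and -4.49, -4.22 and -4.33 in the libraries labelled knockout. Control replicate 1 was almost level with labelled knockout replicate 2, and the mean change was -0.48 (exact two-sided permutation p = 0.1, the smallest this design allows). This ratio carries no length correction. With that correction the values of the 2 genes were close to each other, at -0.10 for Inpp5d and -0.14 for Ptpn6.

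Levels can be compared between genes per kilobase of exon. In the controls the order was Lilr4b (316.4 ± 72.0 CPM per kb, SD, n = 3), Lilrb4a (263.4 ± 56.3), Ptpn6 (57.5 ± 4.88), Sirpa (6.44 ± 0.444), Clec12a (3.77 ± 0.516), Cd300lf (1.61 ± 0.203), Inpp5d (1.46 ± 0.219), Cd300a (0.527 ± 0.0628), Pirb (0.0224 ± 0.0268) and Pecam1. The ranges of Lilr4b and Lilrb4a overlapped between libraries, though within each control library Lilr4b was the higher. The ranges of Cd300lf and Inpp5d overlapped too, and Cd300lf was the higher in 2 of the 3 libraries. The other neighbours in the order did not overlap, apart from Pirb and Pecam1, which are at the limit of detection in the controls.

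In the libraries labelled RhoA knockout the order differed. Lilrb4a (195.3 ± 13.6 CPM per kb) stood above Lilr4b (109.5 ± 12.3), without overlap, and Cd300a (1.68 ± 0.118) rose from place 8 to place 6, above Inpp5d (1.08 ± 0.0854) and Cd300lf (0.770 ± 0.198). Cd300lf moved from place 6 to place 8, with each of its libraries below each Inpp5d library. Ptpn6 (59.3 ± 1.46), Sirpa (11.04 ± 0.849) and Clec12a (5.14 ± 0.747) kept their places. Pirb (0.497 ± 0.0797) remained the lowest of the genes that could be tested, and its highest library, at 0.555 CPM per kb, was just under the lowest Cd300lf library at 0.558.

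**Figure D4:**
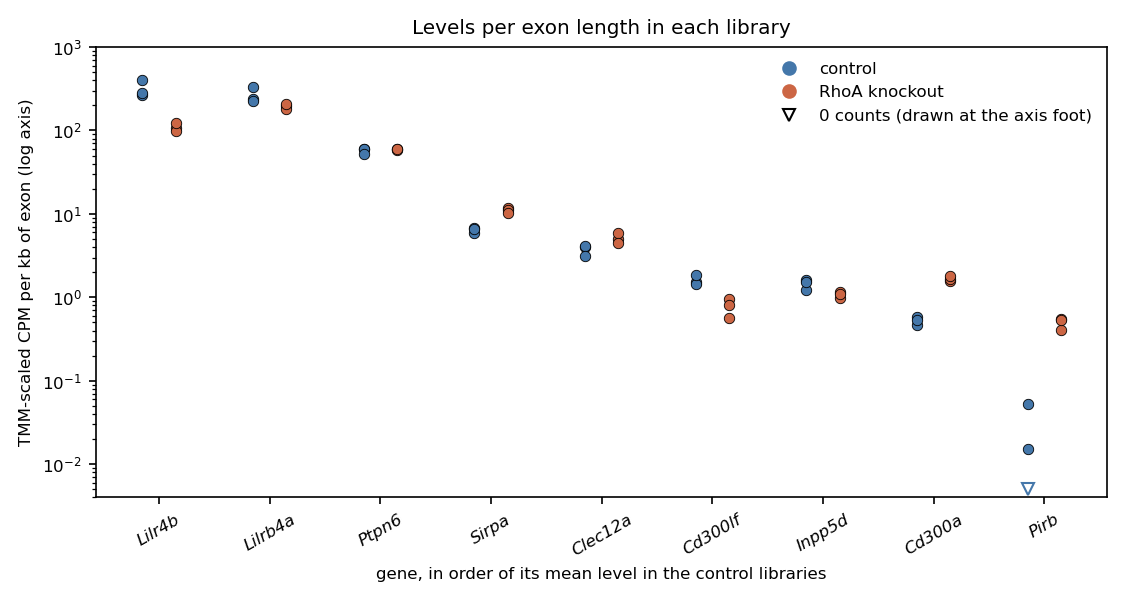
TMM-scaled CPM per kilobase of exon of 9 of the genes (log axis), ordered by their mean in the controls, with a point for each library and an open triangle for a count of 0. Pecam1 is left out. The levels span more than 4 orders of magnitude in the controls, and the points of Lilr4b and Lilrb4a, and of Cd300lf and Cd300a, change order between the groups.

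Promoter sequences, 250 bases before to 50 after the start of the gene, were found in RefSeq for 7 of the 10 genes (GRCm38.p6). The start is that of RefSeq, which for Clec12a lies inside the GENCODE gene given above, so its window (chr6:129349994-129350293) is not at the GENCODE start. They were searched on both strands for GAGGAA, the core bound by PU.1 and other ETS factors of the myeloid lineage. The core occurred in 5 of the 7 against 28.3% of 32851 promoters, and more than once in 4 of the 7 against 4.8%. Pirb, which rose, and Cd300lf, which fell, are shown because they moved in opposite directions and both hold the core more than once, with GAGGAA or its reverse complement TTCCTC in capitals.
Pirb, chr7:3720333-3720632, minus strand: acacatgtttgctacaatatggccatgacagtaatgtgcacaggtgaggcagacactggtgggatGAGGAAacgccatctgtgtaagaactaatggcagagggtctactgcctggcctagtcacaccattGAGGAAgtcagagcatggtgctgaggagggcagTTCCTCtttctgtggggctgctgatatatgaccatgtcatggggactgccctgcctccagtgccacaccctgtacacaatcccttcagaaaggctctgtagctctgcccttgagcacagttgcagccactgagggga
Cd300lf, chr11:115133943-115134242, minus strand: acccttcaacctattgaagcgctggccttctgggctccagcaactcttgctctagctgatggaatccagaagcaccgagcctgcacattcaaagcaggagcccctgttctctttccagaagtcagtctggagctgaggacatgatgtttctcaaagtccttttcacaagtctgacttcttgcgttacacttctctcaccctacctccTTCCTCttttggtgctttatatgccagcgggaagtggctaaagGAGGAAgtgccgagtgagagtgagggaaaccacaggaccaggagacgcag
Clec12a, which rose, and Inpp5d, which was lower, also held the core more than once, Cd300a held it once, and Lilr4b and Ptpn6 had no match in this window. The AP-1 motif TGANTCA matched in 1 of the 7, Clec12a, against 7.8% of all promoters, and the interferon-stimulated response element in 0 of the 7 against 3.4%. None of the 3 motifs contains another, though neighbouring matches can share bases, and a match is not a bound site. Spi1, which encodes PU.1, was at 4.05, 3.36 and 2.65 CPM in the controls and 3.31, 3.40 and 3.90 CPM in the libraries labelled knockout, groups that overlapped (edgeR log2 fold change 0.08, SE 0.25, adjusted p = 0.835).

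The genes around these receptors were followed in 5 lists, described by their counts beside the 43.2% of all tested genes that were called. Among 24 other inhibitory receptors, 18 were tested, of which 6 were higher, 4 lower and 8 not called, with a median log2 fold change of 0.14. Of the called genes, Cd84 was at 0 in every control and Pdcd1 at 0 in every labelled knockout library. Each passed the filter on low counts only through its other group, so these counts are a description. Fcgr2b, the inhibitory IgG receptor that recruits SHIP-1, was at 8.75, 8.56 and 7.02 CPM in the controls and 19.99, 16.98 and 22.11 CPM in the libraries labelled knockout (edgeR log2 fold change 1.28, SE 0.15, adjusted p = 3.36e-05). Cd33, a sialic acid-binding lectin, rose by 2.40 (SE 0.33) and Cd72, an inhibitory lectin best known from B cells, by 0.67 (SE 0.10) on the log2 scale. Milr1, an inhibitory receptor of mast cells, fell by 1.01 (SE 0.13). Each of these 4 had groups that did not overlap.

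Among activating counterparts and ITAM adaptors, 27 of 33 symbols were in the table under that name and 20 were tested, with 9 higher, 5 lower, 6 not called and a median log2 fold change of 0.79. With the length correction, 6 were called higher and 5 lower by edgeR. Trem2, a lipid receptor that signals through Tyrobp, was at 37.9, 34.0 and 35.3 CPM in the controls and at 228, 232 and 278 CPM in the libraries labelled knockout (edgeR log2 fold change 2.78, SE 0.12, adjusted p = 1.08e-08). Fcgr3, an activating IgG receptor, rose by 3.02 (SE 0.13) on the log2 scale. Fcgr2b and Fcgr3 are close relatives, and whether reads were shared between them was not tested. Fcgr1, the high-affinity IgG receptor, fell by 1.91 (SE 0.13) on the log2 scale. Siglec1, an adhesion lectin of macrophages, fell by 4.11 (SE 0.17).

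Among 32 other phosphatases and docking proteins, 30 were tested, with 6 higher, 14 lower, 10 not called and a median log2 fold change of -0.51. Ptpn22, a phosphatase that acts on Src and Syk family kinases, fell by 1.56 (SE 0.13) and Ptpn12 by 1.64 (SE 0.19) on the log2 scale. The adaptor Fyb fell by 1.41 (SE 0.12). The receptor phosphatase Ptpra fell by 0.85 (SE 0.13), but with the length correction its value was -0.35 (edgeR, adjusted p = 0.0487). The nearest relatives of the phosphatases above, Ptpn11 for SHP-2 and Inppl1 for SHIP-2, are named for that relation after their values were seen. Ptpn11 was at 7.37, 6.49 and 4.53 CPM in the controls and 1.97, 3.76 and 2.26 CPM in the libraries labelled knockout (edgeR log2 fold change -1.20, SE 0.29, adjusted p = 0.00514). Inppl1 was at 2.64, 1.95 and 2.05 CPM in the controls and 0.975, 0.995 and 1.58 CPM in the others (edgeR log2 fold change -0.91, SE 0.34, adjusted p = 0.0484). Neither gene had overlapping groups. Inppl1 lay next to the threshold of 0.05, and neither gene was followed by itself under the alternatives.

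All 22 kinases and effectors of ITIM and ITAM signalling were tested, with 3 higher, 9 lower, 10 not called and a median log2 fold change of -0.28. Lyn, the Src family kinase best known for phosphorylating ITIMs in myeloid cells, was at 32.9, 33.2 and 34.8 CPM in the controls and at 13.3, 12.3 and 13.7 CPM in the libraries labelled knockout (edgeR log2 fold change -1.36, SE 0.11, adjusted p = 1.94e-06). Its relative Fgr went the other way, higher by 1.54 (SE 0.19) on the log2 scale. Syk, the kinase that binds ITAMs, fell by 1.38 (SE 0.20), and Pik3ap1, an adaptor of PI 3-kinase, fell by 1.90 (SE 0.19).

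Of 15 genes listed as ligands of the receptors, 9 were tested, with 3 higher, 3 lower and 3 not called and a median log2 fold change of -0.01. H2-D1, an MHC class I heavy chain and so a ligand of the Pirb product, was at 773, 820 and 834 CPM in the controls and 1346, 1185 and 1662 CPM in the libraries labelled knockout (edgeR log2 fold change 0.79, SE 0.14, adjusted p = 6e-04). The other class I genes of the list, named after their values were seen, were not called, and their groups overlapped. They were H2-K1 (0.26, SE 0.12, adjusted p = 0.104 in edgeR) and the light chain gene B2m (-0.01, SE 0.14, adjusted p = 0.952 in edgeR). Rtn4, which encodes the Nogo ligand of the Pirb product, fell by 1.37 (SE 0.11) on the log2 scale. Itgav, the integrin chain that gp49B binds in alphavbeta3, fell by 2.09 (SE 0.23). Itgb3, the partner chain, is named for that pairing after its values were seen. It was near the limit of detection in both groups, at 0.0907, 0.410 and 0 CPM in the controls and 0.134, 0.145 and 0 CPM in the libraries labelled knockout. It was not called (edgeR log2 fold change -0.81, SE 1.57, adjusted p = 0.712). Anxa1, a phospholipid-binding protein in the list that is not an established ligand of these receptors, rose by 1.28 (SE 0.11). The lists were drawn up with earlier results of these data in view, and their counts support nothing beyond themselves.

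**Figure D5:**
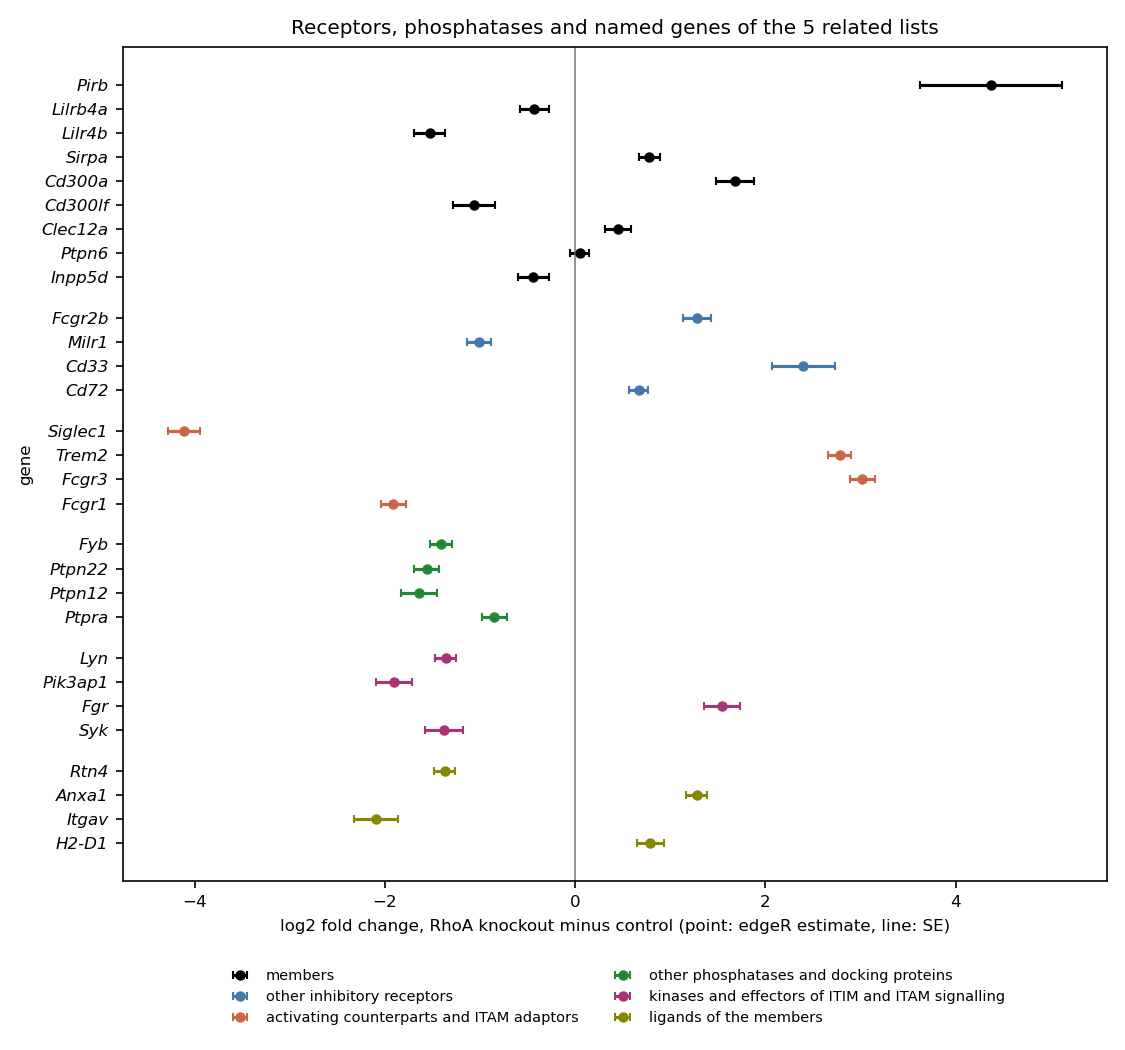
Log2 fold change (libraries labelled RhoA knockout minus control, edgeR estimate with SE) of the 9 tested receptors and phosphatases in black and of the 4 named genes of each list in colour. Pirb at 4.37 lies at the right end of the axis and Siglec1 at the left end, and Ptpn6 at 0.05 lies on the zero line.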

How the data were processed

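The authors deposited whole-number counts per gene, without normalization, in 1 table, with 0 value columns left out here. The build is GRCm38, per the submitters' processing notes, and RNA was extracted with Trizol, per the labels' protocols. Which aligner and counter were run, whether strand was used and what was done with multiply matching reads is not given in the sources used here. Of the gene identifiers, 55227 of 55487 had a GENCODE M21 symbol.

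The counts were compared with edgeR 4.0.16 in R 4.3.3 (TMM factors, filterByExpr, robust glmQLFit, glmQLFTest, two-sided, Benjamini-Hochberg adjustment over 12930 genes, threshold 0.05). The SE is the fold change (log2) over the root of the F statistic. Scripts were tested on simulated data. Near-identical copies were sought with blastn 2.17.0 (at least 95% identity over 200 bp). For each pair of genes the length given is that of the most identical match, so longer stretches of lower identity may also be shared. Motifs were read from coding sequences, since protein sequences were not used here. The alternatives were DESeq2 1.42.0, other scalings and filters, no robust fitting, a length correction, a replicate block, summed copies and leaving out libraries.

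The named genes were the 10 genes, Rhoa and, from each list, up to 4 called genes with the smallest p. Other genes (the Cd300 cluster, Gm49339, markers, near relatives and further ligand genes) are outside this rule. The within-library ratios were added after the data were seen. The genes and lists were chosen with earlier results of these data known. A floor of 3 counts is 0.0367 to 0.0498 CPM, and intervals on counts cover counting error only. The total of 1 marker list is not reported here.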

Additional observations from a re-analysis of the deposited data

How the results depend on the processing

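Lilr4b, Sirpa and Cd300a kept direction and call under every alternative run, as did the 20 named list genes and Pirb, which passed the filter only through its high group and was also called with no filter. The number of lower genes among the 10 was 2 with library totals, upper-quartile factors, the length correction, and the replicate block with length correction, and 2 to 3 without single libraries. Lilrb4a was not called with library totals (-0.25), upper-quartile factors (-0.34), length correction (-0.30) or block with length correction (-0.27), and ran from -0.55 to -0.24 without single libraries, and Clec12a from 0.31 to 0.54. Inpp5d was not called with DESeq2 (-0.42), library totals (-0.27), upper-quartile factors (-0.35), no filter (-0.44), length correction (-0.10), block with length correction (-0.09) or, chosen after seeing the data, without replicate 3 of both groups (-0.42), and ran from -0.56 to -0.38 without single libraries. Ptpn6 changed sign with length correction (-0.14), block with length correction (-0.14) and without replicate 3 of both groups (-0.04), and ran from -0.02 to 0.08 without single libraries. Cd300lf summed with Cd300ld was -0.12. Rhoa ran from 0.34 to 0.45 without single libraries. Among other phosphatases and docking proteins 3 were higher without replicate 3 of both groups and 9 lower with library totals. With the length correction 7 other inhibitory receptors were higher and 4 lower, 6 activating counterparts and ITAM adaptors higher and 5 lower. With the same correction 4 other phosphatases and docking proteins were higher and 10 lower, and 3 kinases and effectors higher and 7 lower. Of the ligands 2 were then higher and 3 lower. The causes were not tested.

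Library totals moved the median of all genes to 0.15 and the share of calls that were higher from 48.5 to 59.8%. Deviations of same-numbered samples correlated at -0.01 to 0.03 over all tested genes, which shows no pairing by number. With n = 3 per group such values cannot settle it, and replicate 3 stood apart in both groups. Whether same-numbered samples shared a batch was not tested. The replicate block gave 2634 higher and 2738 lower genes against 2713 and 2879, and changed no call among the 10 genes. Depth limits Pecam1, and the control level of Pirb rests on the 18 counts of control replicate 1.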
